A study of Rattus norvegicus with 6 samples.

Results

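The interleukin genes of the rat heart were compared between animals given AACO, which the series title names as a formula of Chinese medicine without spelling out the letters, and control animals. Members were the non-control probes of the array whose gene name in the array files starts with Il and a digit, which takes in ligands, receptors, decoy receptors and binding proteins. They were 87 probes for 76 genes of the 26270 genes on the array, and where a gene had several probes the one with the highest mean signal stood for it. Of these 76 genes, 35 encode ligands, 35 receptors and 6 inhibitors (decoy receptors, antagonists or binding proteins).

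Both groups had TAC, short for transverse aortic constriction in cardiac work, an operation that loads the left ventricle and leads to heart failure. The AACO group (n = 3) received the solution at 0.386 µg/g once a day for 8 weeks, and the control group (n = 3) received double-distilled water in the same amount. Hearts were taken 24 h after dosing ended, and the tissue is labelled whole heart. The series text calls the animals mice, the organism field reads Rattus norvegicus, and the probes were placed on the rat build rn4, so they were treated as rat. The series text names different donors for each experiment, no group without the operation was analysed here, and strain, sex and age are not given in the sources used here. Only the spread between these 6 samples enters the p-values.

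Interleukins are secreted proteins by which immune and tissue cells signal to each other, and most act through receptors assembled from a specific chain and a shared chain. The interleukin-1 family signals through Toll-like adaptor proteins and is held in check by decoys such as Il1r2 and Il18bp. Interleukin-6 and interleukin-11 signal through gp130, encoded by Il6st, while interleukin-4 and interleukin-13 share a receptor built from Il4ra and Il13ra1, whose signal runs through STAT6. In the loaded heart these proteins are known from work on inflammation, fibrosis and hypertrophy.

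The signal of a probe is given on the log2 scale after subtraction of the array's 75th percentile, so 0 is the 75th percentile of the array and a difference of 1 is a doubling. A difference is the AACO mean less the control mean, given ± its standard error, and a gene is said to have risen or fallen where the adjusted p of limma (3 arrays per group, Benjamini-Hochberg over 17513 genes) was under 0.05. On the 6 arrays 66.0% to 72.4% of non-control spots were well above background, and the median signal lay between 143 and 261. The AACO arrays shared 1 slide and scan day and the control arrays shared a different slide and day, so slide, scan day and group cannot be told apart. Markers of ventricular cardiomyocytes were above background for 9 of 9 genes, with a summed level of 10.80 to 10.98 on the AACO arrays and 10.67 to 11.23 on the control arrays. The atrial transcript Myl7 read 5.41 and 6.85 on AACO replicates 1 and 2, against −0.44 on AACO replicate 3 and −2.26 to −0.85 on the control arrays. Sln, another atrial transcript, read 1.97 and 4.43 on AACO replicates 1 and 2, 0.21 on AACO replicate 3 and −1.05 to 0.23 on the control arrays. Values without each of these arrays, and with the mean of Myl7 and Sln (the atrial level) as a covariate, are therefore given with the calls.

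Many interleukin genes were too dim to be measured. Of the 76, 25 were well above background on all 6 arrays, 13 on 3 to 5 arrays, 4 on 1 or 2, and 34 on none. The first 2 of these classes, 38 genes in all, were tested: 16 ligands, 17 receptors and 5 inhibitors. Il6, the gene of interleukin-6, was not well above background on any array, and neither were Il2, Il5, Il7, Il9, Il12a, Il12b, Il17a, Il1rl1, the receptor gene of interleukin-33, and Il10ra.

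Of the 38 genes tested 5 fell with AACO and 0 rose in limma. The genes that fell were the receptor genes Il4ra and Il13ra1 and the ligand genes Il13, Il18 and Il25. Over all genes 10.9% were called, 4.97% as higher and 5.94% as lower, while among the interleukin genes 13.2% were called, all of them lower. The split depended on the scaling: rises made up 45.6% of the calls over all genes here, 56.0% with the percentile taken over spots (2 members rose and 5 fell), 69.2% with spike-in scaling (0 rose and 5 fell) and 95.9% without scaling (8 rose and 1 fell), where the median of all genes was 0.52. The 5 falls with spike-in scaling were Il13, Il18, Il1r2, Il25 and Il4ra, while Il13ra1 did not pass (limma adjusted p = 0.131). The 1 fall without scaling was Il1r2, so none of the 5 genes named above passed there. At an unadjusted p under 0.05 in limma the tested members counted 14 lower (36.8%) and 5 higher (13.2%), 19 of 38 in all. Of all genes 16.1% were lower and 14.3% higher, 30.4% in all. For 16 of the 38 members the groups were separate, or 42.1% against 37.4% of all genes, with 4 of the 16 higher and 12 lower, where 17.3% and 20.1% of all genes were. The median difference of the 38 was −0.22 and that of all genes −0.02, and 14 of the 38 lay above 0 against 47.3% of all genes.

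**Figure D1:**
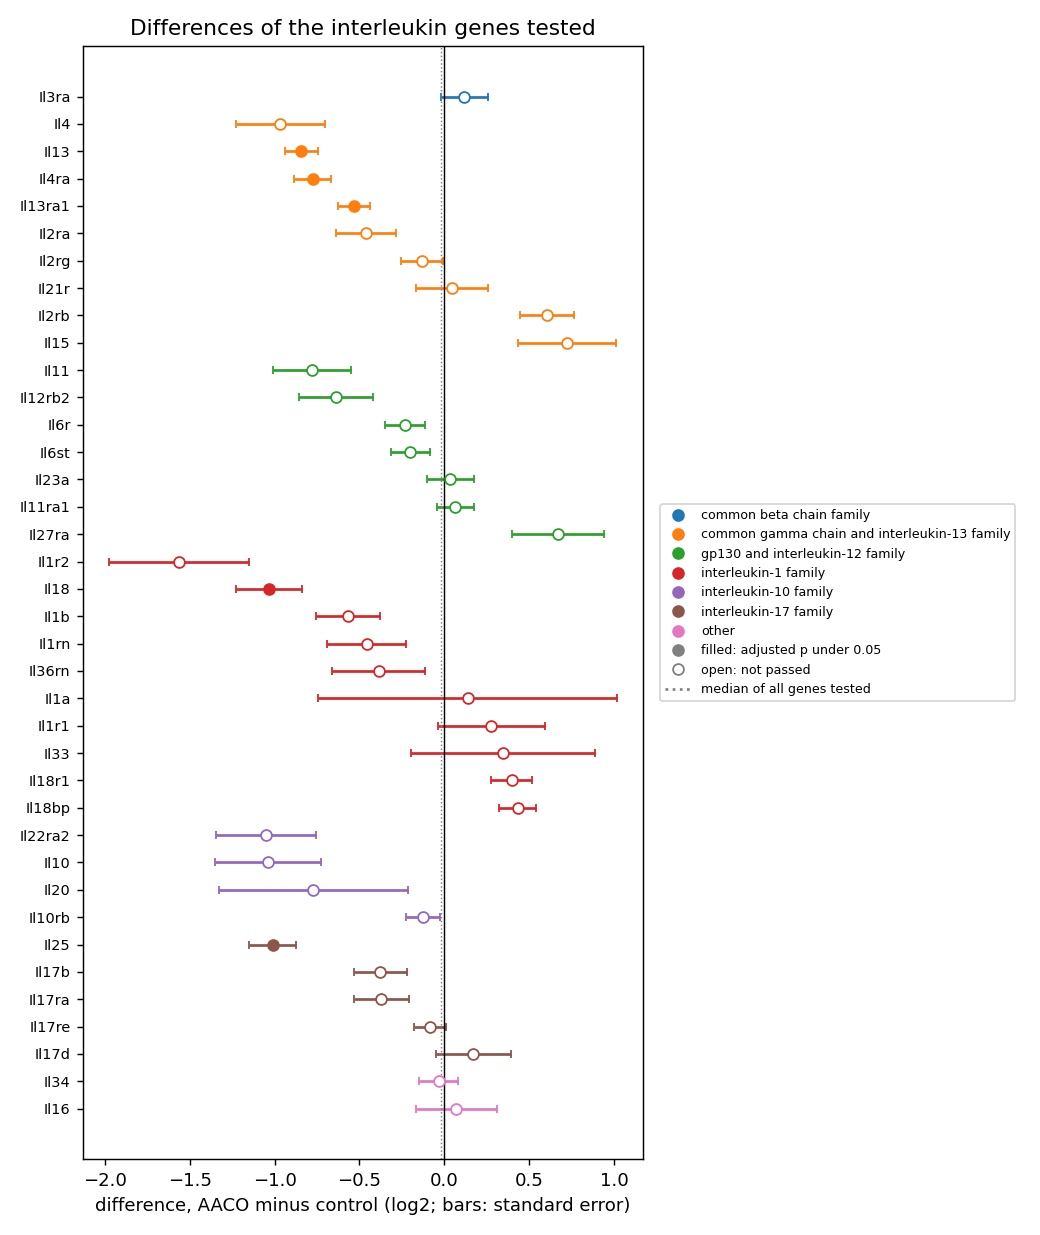
Differences between AACO and control hearts (log2, horizontal axis, with standard errors) of the 38 interleukin genes tested, grouped by family; filled points passed the adjusted threshold and open points did not. The 5 filled points, Il13, Il4ra, Il13ra1, Il18 and Il25, all lie below 0, and the differences run from −1.56 for Il1r2 to 0.72 for Il15.

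The chains of the interleukin-4 and interleukin-13 receptor were both lower on their brighter probes. Il4ra, the chain that binds interleukin-4, read −1.41, −1.44 and −1.21 on the AACO arrays and −0.58, −0.51 and −0.65 on the control arrays. The highest AACO array thus lay below the lowest control array. The difference was −0.78 ± 0.11, or 1.71-fold lower with AACO (limma adjusted p = 0.0126). Il13ra1, the partner chain that binds interleukin-13, read −0.997, −0.959 and −0.927 with AACO and −0.51, −0.34 and −0.43 in control hearts, again without overlap. It was 1.45-fold lower (−0.53 ± 0.09, limma adjusted p = 0.0224). Before scaling, the processed signals of Il4ra overlapped between the groups (425, 530 and 603 with AACO, 746, 539 and 544 in control). Those of Il13ra1 overlapped too, and its difference without scaling was 0.01. Neither gene passed without scaling. In 19 alternatives Il4ra passed in 14, with differences from −0.85 to −0.23 and limma adjusted p from 0.00616 to 0.474.

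Both genes have a second probe, and its values did not follow the first. The stretches below show what both Il4ra probes and the brighter Il13ra1 probe read; each is the first 30 of 60 bases, in lower case throughout because no part stands out, with the difference measured by the probe given after the sequences.
Il4ra, brighter probe: ttggagagctgtcctggggaaatgtcacag
Il4ra, other probe: tacacggaacccaagctgagcttcccagtc
Il13ra1, brighter probe: tacagagccattgtttactactggcctgtg
The array files place the Il4ra probes on the plus strand at chr1:184636781-184636840 and chr1:184630905-184630964 (rn4), 5876 bases apart. The brighter one differed by −0.78 and the other by −0.11 (adjusted p = 0.693 in limma over probes). The brighter Il13ra1 probe is placed on the minus strand at chr11:73144848-73144907 (rn4) and differed by −0.53, while the other differed by −0.01 (adjusted p = 0.971 in limma over probes). RefSeq places Il13ra1 on chromosome X in GRCr8, so the position in the array files and the current one differ, and whether the probe also reads another locus was not tested. With the mean of both probes in place of the brighter one, Il4ra (−0.44, limma adjusted p = 0.075) and Il13ra1 (−0.27, limma adjusted p = 0.167) did not pass. No annotation of rn4 was used here, so the exon or untranslated region that a probe lies in is not given.

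**Figure D2:**
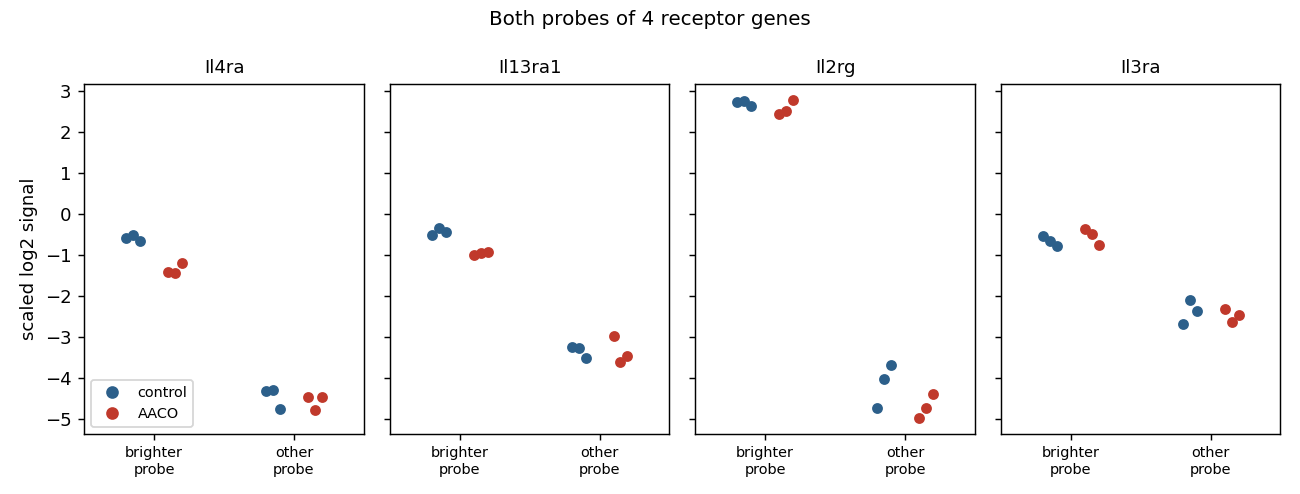
Scaled log2 signal (vertical axis) of both probes of Il4ra, Il13ra1, Il2rg and Il3ra, with 1 point per array, control arrays in blue and AACO arrays in red. The groups separate on the brighter probe of Il4ra and Il13ra1 and overlap on the other probe of each, and on both probes of Il2rg and Il3ra.

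With 1 array left out the differences of both receptor genes stayed between −0.85 and −0.73 for Il4ra and between −0.58 and −0.49 for Il13ra1, while some calls were lost. The whole table lost calls too, from 871 rises and 1040 falls to 166 and 283 with AACO replicate 1 omitted and 104 and 189 with AACO replicate 2 omitted. Il4ra did not pass without AACO replicate 1 (limma adjusted p = 0.054) or AACO replicate 2 (0.0614). Il13ra1 did not pass without AACO replicate 1 (limma adjusted p = 0.0808), AACO replicate 2 (0.0865), control replicate 2 (0.0593) or control replicate 3 (0.071). With the atrial level as a covariate the differences were −0.60 for Il4ra and −0.51 for Il13ra1 and neither passed (limma adjusted p = 0.2 and 0.272). No gene of the whole table was called in that fit.

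Of the 5 genes that fell, 3 had an upstream sequence in the set used here, and Il13 and Il25 had none. The upstream sequences of those 3, both receptor genes and Il18 (described below), are shown. They are the 250 bases before the annotated start in RefSeq (GRCr8), 5′ to 3′ on the gene's strand, with matches to the GC box GGGCGG in capitals on either strand; matches may overlap.
Il4r, chr1:189545525-189545774, plus strand: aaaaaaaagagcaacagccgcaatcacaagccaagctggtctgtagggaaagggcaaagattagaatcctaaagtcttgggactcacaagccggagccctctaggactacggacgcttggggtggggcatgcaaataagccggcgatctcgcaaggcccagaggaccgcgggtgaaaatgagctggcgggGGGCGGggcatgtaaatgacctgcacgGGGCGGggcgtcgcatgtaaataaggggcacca
Il13ra1, chrX:120214355-120214604, plus strand: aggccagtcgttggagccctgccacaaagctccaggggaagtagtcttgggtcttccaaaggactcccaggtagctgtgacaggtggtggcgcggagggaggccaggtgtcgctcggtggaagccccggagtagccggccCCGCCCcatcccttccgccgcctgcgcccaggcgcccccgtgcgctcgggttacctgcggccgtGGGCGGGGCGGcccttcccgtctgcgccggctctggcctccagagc
Il18, chr8:59801822-59802071, plus strand: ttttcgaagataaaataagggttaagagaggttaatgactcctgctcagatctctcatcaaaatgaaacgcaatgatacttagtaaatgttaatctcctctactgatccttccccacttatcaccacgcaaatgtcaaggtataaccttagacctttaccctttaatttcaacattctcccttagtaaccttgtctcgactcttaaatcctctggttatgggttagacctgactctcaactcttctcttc
Il4r, the current symbol of Il4ra, held 2 matches to the GC box, Il13ra1 held 3 and Il18 held 0, where 30.5% of 33469 rat promoters of the same length hold at least 1. Their G and C content was 57.2%, 71.6% and 38.4%, against a median of 51.2% over all promoters. None of the 3 held the STAT motif TTCNNNGAA (7.67% of all promoters) or its STAT6 form with a spacer of 4 bases (6.25%), the AP-1 motif TGANTCA (6.34%) or the E-box CACGTG (5.59%), each searched on both strands, which says only that these letters are not in this window.

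The ligands of that receptor were near the detection limit. Il13, which encodes interleukin-13, a product of type 2 lymphocytes and mast cells, read −5.81, −5.65 and −5.83 with AACO and −4.86, −4.92 and −4.99 in control hearts. It fell by 0.84 ± 0.10 (limma adjusted p = 0.00943), without overlap, and passed whichever single array was omitted. Its probe (chr10:39093534-39093593, minus strand, rn4; first 30 bases attactccaagcaacttttccgctatggcc) was well above background on 1 AACO and 2 control arrays. The processed signals were 20.2, 28.6 and 24.5 with AACO and 38.5, 25.3 and 26.9 in control hearts, which overlap before scaling. Il4, the interleukin-4 gene, read −5.53, −5.93 and −5.77 with AACO and −4.38, −4.61 and −5.34 in control hearts. Its groups did not overlap, and the difference of −0.97 ± 0.26 did not pass (limma adjusted p = 0.0629), though it passed without control replicate 3 (0.0339). In 18 alternatives Il4 passed in 2, with differences from −1.25 to −0.42 and limma adjusted p from 0.0155 to 0.506. Its probe was well above background on 3 AACO and 2 control arrays. The processed signals of Il4 were 24.5, 23.6 and 25.4 with AACO and 53.5, 31.3 and 21.0 in control hearts, which overlap before scaling.

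Il25 belongs to the interleukin-17 family and encodes a cytokine that drives type 2 responses. It read −5.61, −6.05 and −5.73 with AACO and −4.73, −4.88 and −4.75 in control hearts, without overlap. It fell by 1.01 ± 0.14 (limma adjusted p = 0.0125), and passed whichever single array was omitted. Its probe (chr15:33037900-33037959, plus strand, rn4; first 30 bases atggacccaatgggcaactcagtaccactc) was well above background on 1 AACO and 2 control arrays, at processed signals of 23.2, 21.7 and 26.2 with AACO and 42.1, 26.0 and 31.7 in control hearts. The Il25 signals too overlapped before scaling, at 26.2 on AACO replicate 3 and 26.0 on control replicate 2. Without scaling the difference of Il25 was −0.47 and that of Il13 −0.30, and neither passed (limma adjusted p = 0.159 and 0.362). Neither gene passed with the atrial level as a covariate (limma adjusted p = 0.218 for Il25 and 0.138 for Il13).

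The differences of Il13 and Il25 lay below the median of probes that read background but above their 5th percentile, and whether background set them was not tested. The scaled signal of the 6884 genes well above background on no array differed by a median of −0.65 between the groups, and from −1.08 to 0.23 between the 5th and the 95th percentile. The 34 interleukin genes among them differed by a median of −0.62, with 32 of 34 below 0, and were not tested. Il6 read −7.12, −7.85 and −7.53 with AACO and −6.35, −6.27 and −5.88 in control hearts, Il1rl1 differed by −0.79 and Il10ra by −0.81. These values give no order of expression. Among the 2018 genes well above background on 3 to 5 arrays, the class of Il13 and Il25, the median was 0.16 and 4.66% were called lower, while the 13 interleukin genes of that class had a median of −0.77. Among the 15495 genes above background on all arrays the median was −0.03, and that of the 25 interleukin genes −0.13.

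**Figure D3:**
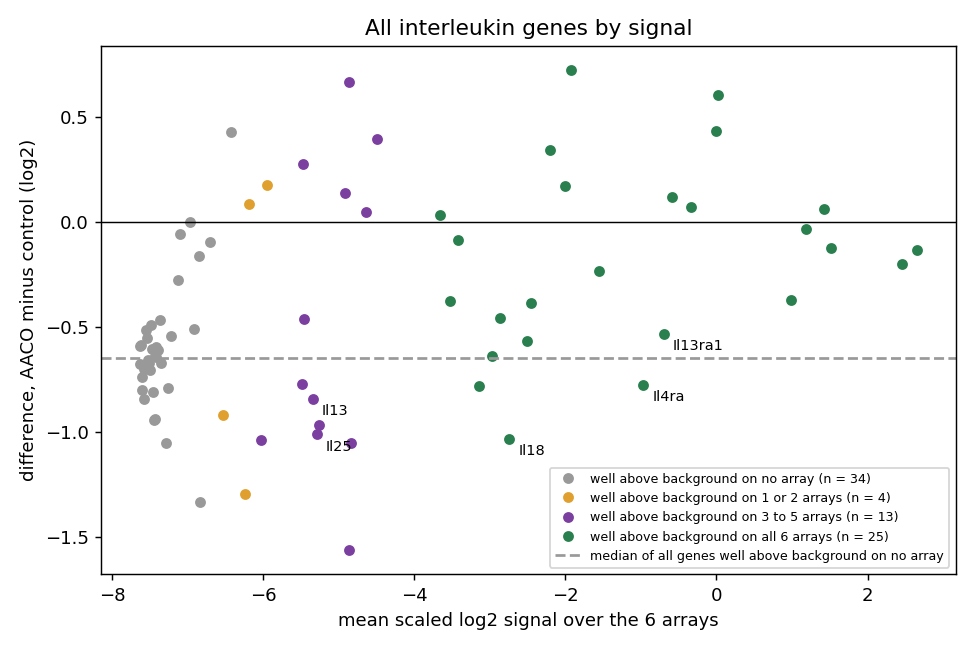
Difference between AACO and control (log2, vertical axis) against the mean scaled log2 signal (horizontal axis) for all 76 interleukin genes, coloured by the number of arrays on which the probe was well above background, with the 5 genes that passed named. The 34 genes above background on no array gather around the dashed line at −0.65, the median of all such genes, while Il18, Il4ra and Il13ra1 lie among the genes measured on all 6 arrays.

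In the interleukin-1 family, Il18, which encodes a cytokine stored as a precursor and released after cleavage by caspase-1, was the ligand that fell. It read −3.26, −3.04 and −3.47 with AACO and −2.58, −2.12 and −1.98 in control hearts, and the groups did not overlap. It was 2.05-fold lower with AACO (−1.03 ± 0.19, limma adjusted p = 0.0263; probe at chr8:53943005-53943064, plus strand, rn4, first 30 bases gccaaaaggaagatgatgctttcaaactcg). With any 1 array omitted the direction was kept, but the adjusted p passed only without control replicate 1, at 0.0179. It was 0.093, 0.07 and 0.0511 without AACO replicates 1, 2 and 3, and 0.0633 and 0.0726 without control replicates 2 and 3. With the atrial level as a covariate the difference was −1.37 (limma adjusted p = 0.159), and without scaling it was −0.49 (limma adjusted p = 0.14).

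The binding protein and the receptor of interleukin-18 lay on the other side of 0. Il18bp, a secreted protein that neutralizes interleukin-18, read 0.10, 0.28 and 0.23 with AACO and −0.09, −0.30 and −0.29 in control hearts. Its groups did not overlap, and the difference of 0.43 ± 0.11 did not pass (limma adjusted p = 0.0534). Among 19 alternative settings it passed in 6, with adjusted p values between 0.00898 and 0.386. Il18r1, the receptor chain that binds the cytokine, differed by 0.40 ± 0.12 without overlap (limma adjusted p = 0.0849), and by −0.19 with normexp background correction. The other receptor chain, Il18rap, was above background on no array.

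Il1b, the gene of interleukin-1 beta, read −2.87, −2.91 and −2.60 with AACO and −2.02, −2.62 and −2.05 in control hearts. AACO replicate 3 lay just above control replicate 2, so the groups overlapped, and the difference of −0.57 ± 0.19 did not pass (limma adjusted p = 0.106), though it passed without control replicate 2 (0.0384). Il1a varied more than the groups differed, with an SD of 1.55 on the AACO arrays and 1.14 on the control arrays (n = 3 each) around a difference of 0.14. Il33, an alarm cytokine of stromal cells, read −1.64, −1.35 and −3.09 with AACO and −2.80, −2.75 and −1.54 in control hearts. AACO replicate 3 lay below all control arrays, AACO replicate 2 above all of them, and AACO replicate 1 between control replicate 3 and the other two (difference 0.34 ± 0.54, limma adjusted p = 0.702).

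Among the inhibitors, the decoy receptor gene Il1r2 had the largest difference of all members tested. It read −5.36, −6.63 and −4.95 with AACO, where it was well above background on 2 of 3 arrays, and −3.98, −4.03 and −4.24 in control hearts. The groups did not overlap, but the spread with AACO (SD 0.88, n = 3) was wide, and the difference of −1.56 ± 0.41 did not pass (limma adjusted p = 0.06). It passed in 5 of 18 alternatives, among them the fit without AACO replicate 3 (0.0385). Il1rn, the receptor antagonist, differed by −0.46 ± 0.23 and Il36rn by −0.39 ± 0.27, both with overlap (limma adjusted p = 0.236 and 0.377), though Il36rn passed without control replicate 1 (0.0328). The signalling receptor gene Il1r1 was well above background on all AACO arrays and no control array, but read −4.69, −5.52 and −5.78 with AACO and −5.83, −5.22 and −5.76 in control hearts, which overlap. Its difference of 0.28 ± 0.31 did not pass (limma adjusted p = 0.584), and was −0.04 without AACO replicate 1 and −0.33 with normexp.

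**Figure D4:**
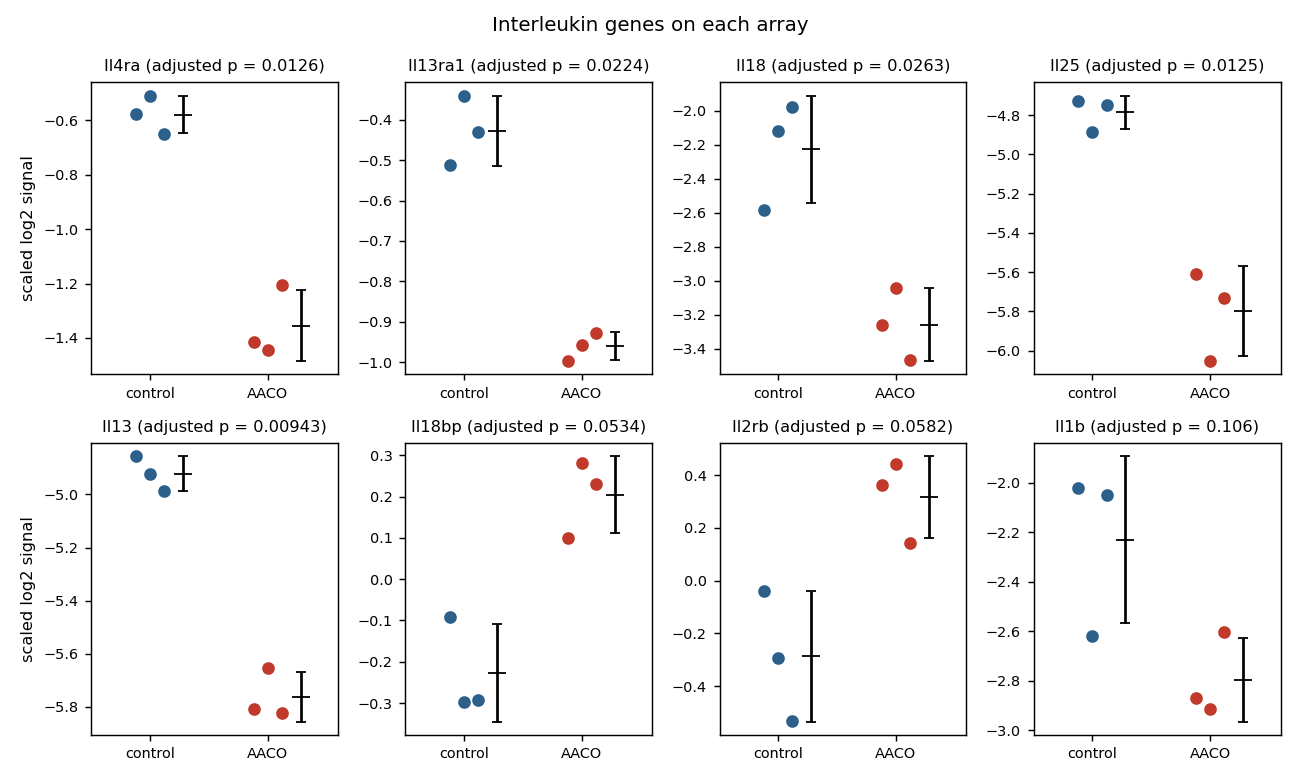
Scaled log2 signal (vertical axis) of 8 interleukin genes on each array, with the mean and SD (n = 3) beside the points of each group; each panel has its own vertical scale. The top row and Il13 hold the 5 genes that fell; Il18bp and Il2rb are higher with AACO without overlap but did not pass, and the Il1b groups overlap.

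No gene of the interleukin-6 and interleukin-12 family passed in limma among 7 tested, of which 2 had an unadjusted p under 0.05 below 0 beside Il27ra above it. Il11, a ligand of gp130 known from cardiac fibroblasts, read −3.25, −3.84 and −3.51 with AACO and −2.41, −3.13 and −2.72 in control hearts. The groups did not overlap, and the difference of −0.78 ± 0.23 did not pass (limma adjusted p = 0.076). Il6st, the shared signal chain, read 2.35, 2.49 and 2.22 with AACO and 2.55, 2.44 and 2.67 in control hearts, which overlap (−0.20 ± 0.12, limma adjusted p = 0.287). The interleukin-6 receptor gene Il6r differed by −0.23 ± 0.12 (limma adjusted p = 0.23). Il12rb2, a chain of the interleukin-12 receptor, differed by −0.64 ± 0.22 with overlap (limma adjusted p = 0.109), and passed without control replicate 2 (0.036). Il27ra differed by 0.67 ± 0.27 (limma adjusted p = 0.154), and by −0.13 with normexp background correction.

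Among the other genes of the common gamma chain family, the ligand gene Il15 and the receptor chain gene Il2rb, which binds interleukin-15 and interleukin-2, lay above 0. Il15 read −1.75, −1.16 and −1.78 with AACO and −2.005, −2.856 and −2.005 in control hearts, without overlap (0.72 ± 0.29, limma adjusted p = 0.149). Il2rb read 0.36, 0.44 and 0.14 with AACO and −0.04, −0.29 and −0.53 in control hearts, also without overlap, and the difference of 0.60 ± 0.16 did not pass (limma adjusted p = 0.0582). It passed in 5 of 19 alternatives, among them the fit without control replicate 1 (0.0431), and the array files give no position for its probe. Il2ra differed by −0.46 ± 0.18 (limma adjusted p = 0.14), and its probe was well above background on 3 AACO arrays and 1 control array. The processed signals of Il2ra were 23.1, 28.7 and 24.9 with AACO and 37.9, 16.8 and 21.7 in control hearts, which overlap before scaling. The common gamma chain gene itself, Il2rg, differed by −0.13 on its brighter probe and −0.55 on the other, and neither passed (adjusted p = 0.505 in limma over genes and 0.25 in limma over probes).

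The interleukin-10 family had 4 tested members, all below 0, and none passed in limma. Il10, an anti-inflammatory cytokine, read −6.77, −7.03 and −5.86 with AACO and −5.26, −5.59 and −5.69 in control hearts, well above background on 1 AACO and 2 control arrays. The groups did not overlap (−1.04 ± 0.31, limma adjusted p = 0.0817), and Il10 passed without AACO replicate 3 (0.0186). Il22ra2, a soluble decoy for interleukin-22, differed by −1.05 ± 0.29 without overlap (limma adjusted p = 0.069). Il10rb, the receptor chain shared by several members of the family, differed by −0.12 ± 0.10 with overlap (limma adjusted p = 0.444).

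In the interleukin-17 family, beside Il25, the receptor gene Il17ra read 0.92, 0.76 and 0.73 with AACO and 0.93, 1.11 and 1.49 in control hearts. The groups were separated by less than 0.01 and the difference of −0.37 ± 0.16 did not pass (limma adjusted p = 0.181). Il17b differed by −0.38 ± 0.16 (limma adjusted p = 0.162), and Il17a and Il17f were above background on no array. Il16, a ligand of CD4, and Il34, a ligand of the macrophage receptor Csf1r, stood nearly level between the groups (0.07 ± 0.24 and −0.03 ± 0.12, limma adjusted p = 0.865 and 0.868). The tested genes not yet named, Il3ra, Il11ra1, Il17d, Il17re, Il20, Il21r and Il23a, differed by −0.77 (Il20) to 0.17 (Il17d) with overlap, at limma adjusted p from 0.389 to 0.905. Without control replicate 1, Il20 differed by −1.44 and passed (limma adjusted p = 0.024), and without scaling Il17d differed by 0.72 and passed (limma adjusted p = 0.0465). Of the 4 genes above background on 1 or 2 arrays, none was tested. Il1rl2, the interleukin-36 receptor gene, was above background on 1 control array and on no AACO array. Its processed signals were 6.6, 13.6 and 15.2 with AACO and 34.4, 14.1 and 13.4 in control hearts, which overlap before scaling, so no size is given. Il17c, Il27 and Il28ra were each above background on 1 AACO array.

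Genes that act with the interleukins moved in both directions. Of 9 tested cytokines and receptors that share gp130, 1 rose and 2 fell, with a median of −0.40 against −0.02 over all genes. Ctf1, which encodes cardiotrophin-1, a growth factor of cardiomyocytes, read −1.69, −1.89 and −2.19 with AACO and −2.75, −2.72 and −2.72 in control hearts and rose (0.80 ± 0.14, limma adjusted p = 0.0228). Among those that fell, Lif, leukemia inhibitory factor, differed by −0.55 ± 0.12 (limma adjusted p = 0.0357). Without scaling the Lif difference was −0.00035, and it passed in none of the 6 fits with an array left out (limma adjusted p from 0.0624 to 0.122). Of 9 JAK and STAT genes 1 fell (median −0.22), Stat3, the transcription factor that gp130 activates. It read 1.75, 1.68 and 1.92 with AACO and 2.29, 2.36 and 2.30 in control hearts, without overlap, and differed by −0.53 ± 0.10 (limma adjusted p = 0.0281), but by 0.01 without scaling.

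Among 9 tested genes that interleukin-6 or interleukin-1 is known to induce, 2 fell and 0 rose in limma (median −0.40), and 2 rows of the list were above background on no array, the fibrinogen genes Fga and Fgg. Cebpd and Cebpb, transcription factors of the acute phase response, differed by −1.47 ± 0.26 and −1.06 ± 0.20 (limma adjusted p = 0.0222 and 0.0265). Cebpd read 1.35, 2.14 and 1.64 with AACO and 2.78, 3.34 and 3.42 in control hearts, without overlap. Of 11 feedback genes 1 rose and 2 fell (median −0.26). Socs7 fell by 1.09 ± 0.16 (limma adjusted p = 0.0132). The phosphatase gene Ptpn6 fell by 0.47 ± 0.10 (limma adjusted p = 0.0332), but lay at 0.08 without scaling. Socs6 was the gene called higher (limma adjusted p = 0.0179). It was well above background on 3 AACO and 0 control arrays, so it entered the test through the AACO arrays alone and the call carries that limit. With dim control arrays raised to their detection floor Socs6 read 2.58-fold higher. With normexp background correction it differed by 0.014 (limma adjusted p = 0.949) and no feedback gene was called higher. Of 14 genes that mature or transmit interleukin-1 and interleukin-18, 1 rose and 1 fell (median −0.09). Tab1, an adaptor of the kinase TAK1, rose by 0.51 ± 0.09 (limma adjusted p = 0.0245), Irak3, a brake on interleukin-1 signalling, fell by 0.68 ± 0.13 (limma adjusted p = 0.0253), and the inflammasome sensor gene Nlrp3 was above background on no array.

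No gene of the other lists passed in limma. Lcn2 differed by −0.57 ± 0.16 (limma adjusted p = 0.0694) among 5 genes of interleukin-17 signalling (median −0.31), and Crlf2 by −0.20 (limma adjusted p = 0.211) among 4 receptors and ligands related to the interleukins (median −0.13). The 11 pathway genes that passed all kept their direction when 1 array was left out, but 1 still passed without AACO replicate 1, 1 without AACO replicate 2, 10 without AACO replicate 3, 6 without control replicate 1, 4 without control replicate 2 and 3 without control replicate 3. The highest adjusted p among them in these fits was 0.122.

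Among the markers of other cells, most of those for macrophages fell, and the other lists had at most 1 call each. In RNA of whole tissue, fewer cells of a type and less RNA per cell cannot be told apart. Of 12 macrophage markers 9 fell and 0 rose in limma (median −1.20). Their summed level was 4.52 to 4.59 on the AACO arrays and 5.29 to 5.87 on the control arrays, with all 12 above background. Csf1r (−0.02), Aif1 (−0.13) and Lyz2 (−0.87) did not pass (limma adjusted p = 0.953, 0.656 and 0.0641). Without scaling 5 fell, with 1 array left out 6 to 10 fell, and with the atrial level as a covariate 0 fell. The part of macrophages in the lower Il18, Il4ra and Il13ra1 signal was not tested. Of 4 tested neutrophil markers 1 fell, with a summed level of −0.80 to 0.53 with AACO and 0.88 to 1.47 in control hearts, and Csf3r, Mmp8, Mmp9 and Elane were above background on no array.

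Markers of lymphocytes and mast cells, the usual sources of interleukin-13 and interleukin-4, were in part too dim to be tested. Of 7 tested T cell markers 1 fell, Cd4 (−1.11), which rat macrophages also carry, and the summed level overlapped between the groups, at −1.20 to −1.08 with AACO and −1.43 to −0.45 in control hearts. Cd3e, Cd5 and Trat1 were above background on no array, while Cd3d, Cd3g, Cd4 and Cd8b were above background on all 6. Of 5 tested mast cell markers 0 passed in limma, and the summed level overlapped (−0.28 to 0.03 with AACO, −0.22 to 0.15 in control hearts). Those 5, Mcpt2, Tpsab1, Tpsb2, Kit and Hdc, were above background on all 6 arrays, and Cpa3, Mcpt1 and Fcer1a on no array. Of 7 NK cell markers 1 fell, Gzma (−0.66), with summed levels of −0.09 to 0.24 with AACO and −0.21 to 0.27 in control hearts. The 1 B cell marker and the 5 dendritic cell markers tested did not pass.

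In lists of other tissues, 1 of 5 smooth muscle genes (Smtn, 0.51) and 1 of 4 Schwann cell genes (Sox10, 1.46) rose. Falls were called for 1 of 2 adipocyte genes (Fabp4, −0.72) and 1 of 4 erythroid genes (Alas2, −1.39). The limma adjusted p was 0.0429 for Smtn, 0.0467 for Sox10, 0.0392 for Fabp4 and 0.0236 for Alas2. With 1 array left out, no adipocyte gene passed. In those fits smooth muscle genes passed only without control replicate 1, and Schwann cell genes only without AACO replicate 3. Erythroid genes passed there only without AACO replicate 3 or control replicate 3. With all 6 arrays none passed among the 6 endothelial, 7 fibroblast, 2 epicardial, 5 atrial, 2 thymic and 9 ventricular genes tested in limma.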

How the data were processed

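Single-colour Cy3 arrays of 6 whole heart RNA samples were read with Agilent Feature Extraction 10.7.1.1, per the submitters' processing notes. Per the file headers, the authors' software corrected each spot's intensity for background and did not scale it between arrays. The authors also deposited a value table on the log2 scale, with equal quartiles on every array, whose columns followed the scanner values at r from 0.998 to 0.99998 across probes; its exact normalization is not given in the sources used here. Controls and outlier-marked spots were dropped, spots of a probe were averaged on the log2 scale, and each array's 75th percentile over non-control probes was subtracted. A gene was tested where its probe of highest mean signal was well above background on at least 3 of 6 arrays. AACO and control were compared in R 4.3.3 with limma 3.58.1 (lmFit, eBayes, two-sided, Benjamini-Hochberg), checked on simulated data. With the percentile taken over spots, which counts probes printed several times more than once, rises made up 56.0% of all calls in place of 45.6%. A gene above background on no array of a group has only a bound, taken from the brighter group's mean and a floor on each dim array (its own signal or the lowest signal well above background, whichever is higher).

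Accessions matched a current symbol for 71 of the 76 genes (RefSeq, GRCr8). Members and gene lists were chosen with earlier results of these data known. Named were the genes that passed, the genes with the smallest unadjusted p up to 24, 19 genes named whatever their values, and the pathway genes that passed or came nearest. A pathway gene that passed and a probe sequence are not reported here. Precision is limited by 3 arrays per group. Alternatives covered scaling, background correction, the filter, the choice of probe, names, the variance model, a covariate for Myl7 and Sln, and each array left out.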

Additional observations from a re-analysis of the deposited data

How the results depend on the processing

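The 5 falls among the interleukin genes and the 0 rises were recounted in 19 alternatives. Rises numbered 1 with quantile normalization, 1 with the series matrix values, 2 with probes above background on all 6 arrays, 2 with a trended robust variance, 2 with the percentile over spots (added after seeing the data) and 8 with no scaling. Falls numbered 1 with no scaling, 13 with normexp background correction, 17 with no filter, where 76 genes were counted, 3 with probes above background on all 6 arrays, 3 with the mean of probes and 0 with the Myl7 and Sln covariate. Leaving out 1 array gave 0 to 1 rises and 2 to 7 falls, and the genes called were not always the same. Il13 and Il25 fell in all 6 of these fits, Il4ra in 4, Il13ra1 in 2 and Il18 in 1. Without control replicate 2 the 5 falls were Il12rb2, Il13, Il1b, Il25 and Il4ra. Without AACO replicate 3 the 6 falls included Il10 and Il1r2 but not Il18. In the whole table the share of rises among calls was 45.6%, and 49.6% with quantile normalization, 54.2% with median scaling, 56.0% with the percentile over spots, 69.2% with spike-in scaling, 95.9% with no scaling, 27.8% with normexp and 23.1% with no filter. Without scaling the median of all genes lay at 0.52, so the members' median, 0.33 there, differed from it by −0.20, as with the other scalings by a constant. The cause of these shifts was not tested, beyond the number of genes tested where the filter changed.

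Differences changed sign with no scaling for Il10rb (0.42), Il13ra1 (0.013), Il17b (0.17), Il17ra (0.18), Il17re (0.46), Il1rn (0.089), Il2ra (0.086), Il2rg (0.41), Il34 (0.51), Il36rn (0.16), Il6r (0.31), Il6st (0.35), Stat3 (0.012), Ptpn6 (0.077) and Crlf2 (0.34), none of them called there. They did so with normexp for Il18r1 (−0.19), Il1a (−0.26), Il1r1 (−0.33), Il21r (−0.20), Il23a (−0.14) and Il27ra (−0.13). With the covariate they did so for Il16 (−0.30), Il17d (−0.37), Il1a (−1.75), Il1r1 (−0.026), Il21r (−0.38), Il23a (−0.029), Il2rg (0.099), Il33 (−1.02) and Il3ra (−0.076). Il34 changed sign with spike-in scaling (0.072) and the percentile over spots (0.026), and Il17re with spike-in scaling (0.021). Without single arrays Il16 ran from −0.12 to 0.26, Il1a from −0.46 to 1.03, Il1r1 from −0.044 to 0.50 and Il34 from −0.12 to 0.025. In the same fits Il11ra1 ran from −0.016 to 0.11, Il17d from −0.0051 to 0.36, Il21r from −0.17 to 0.19 and Il23a from −0.071 to 0.15. Slide and scan day as a block were not run, since each slide holds 1 group. No paired analysis was possible because the groups share no numbers in the labels. Signal over background limits the 51 genes not measured on all arrays.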
